A study of Ciona robusta with 15 samples.

Results

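Ciona robusta is a solitary sea squirt whose oral siphon, the tube that draws in seawater, grows back after it is cut off. The 72 transcripts described here were higher in every library of regrowing siphon than in every library of siphon taken at once after amputation, and their mean in non-regenerating siphons did not exceed the highest of the libraries taken at once. They are 0.406% of the 17745 transcript identifiers of the count table. As background, regrowth of the ascidian siphon needs cells that divide and then differentiate into new epithelium, muscle and sensory structures, and the branchial sac below the siphon is known as a source of such cells.

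Polyadenylated RNA was sequenced from oral siphons of wild type sibling animals 6 months old, grown from the gametes of a pair of wild-caught adults. The groups were siphons 0, 1, 3 and 8 days after amputation (D0, D1, D3 and D8, of which D0 was taken immediately) and non-regenerating siphons (NR), with 3 libraries each and 5 siphon samples pooled in each library. All animals chosen for amputation were anesthetized in MS222. The labels do not say how NR siphons differed from D0 siphons in handling, or whether pools shared animals, so each value is the average of a pool, and p-values measure the spread between pools. D1, D3 and D8 are called regrowth libraries below, 9 in all.

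Members were selected on CPM, the read count relative to the library total, after TMM scaling, which corrects those totals for a few dominant transcripts. The lowest of the 9 regrowth libraries had to lie above the highest of the 3 D0 libraries, the mean of the 9 had to be at least 1 CPM, and the NR mean could not exceed the highest D0 library. The regrowth and D0 values therefore chose the members, as did the NR mean, and all differences of these groups from D0 or NR are given as a description without a test. The first 2 conditions were met by 334 transcripts, 1.88% of all identifiers, and the first alone by 2.21% of the transcripts tested between days; nothing is read from these shares. In 262 of them the NR mean was above the highest D0 library, and the remaining 72 are the members. In the opposite direction, with all 9 regrowth libraries below all 3 D0 libraries and a D0 mean of at least 1 CPM, there were 280 transcripts. None of the 72 identifiers was found in the reference table of 21486 RefSeq genes (0 of 17745 for the whole table), so no gene name, function, position or sequence is attached to any of them, the pathway and cell type lists could not be applied, and the identity of the tissue was not checked against markers. Transcript lengths were not used here either, so CPM values are compared between libraries within a transcript and not between transcripts.

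Library totals ran from 7039611 counts in D3 replicate 1 to 33413013 in NR replicate 2. Across the 15328 transcripts that passed the expression filter, the most similar library of several libraries belonged to another group. D3 replicate 3 was nearest to D0 replicate 1 (Spearman's rho 0.977), D8 replicate 3 and D1 replicate 2 were nearest to each other (0.980), D1 replicate 3 was nearest to D8 replicate 2 (0.975), D3 replicate 2 to D1 replicate 2 (0.975), and NR replicate 1 to D8 replicate 2 (0.923). An exchange of labels among the 9 regrowth libraries would leave the list of members as it is, because the rule pools them. It would alter the comparisons between days. An exchange between a regrowth library and a D0 or NR library could change the list, and no exchange was run. Leaving a library out, which is not an exchange, did change it. Without D3 replicate 3 the rule admitted 160 transcripts, including all 72. Apart from the recomputed scaling, omitting a regrowth library can only relax the condition on the lowest library. Nothing is therefore read from all 72 being kept. Without NR replicates 1, 2 and 3 in turn the rule admitted 79, 71 and 65 transcripts, including 57, 57 and 52 of the 72. Scaling was recomputed for each omission. The conditions on regrowth and D0, which compare no NR values, were then met by 300 transcripts in each case, instead of 334. The change is thus not particular to NR replicate 1.

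In most of the 72 members the difference from D0 was modest. The mean of the 9 regrowth libraries was 1.14 to 37.3 times the D0 mean, with a median of 1.52 times, where all tested transcripts had a median of 1.02 times. In 41 members the ratio was at least 1.5 times, and in 14 it was at least 2. Mean regrowth levels ran from 1.95 to 745 CPM, with 4 members at 100 CPM or more, 45 between 10 and 100 CPM and 23 under 10 CPM. All 72 passed the expression filter. In bulk tissue, more cells of a type and more RNA per cell cannot be told apart.

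**Figure D1:**
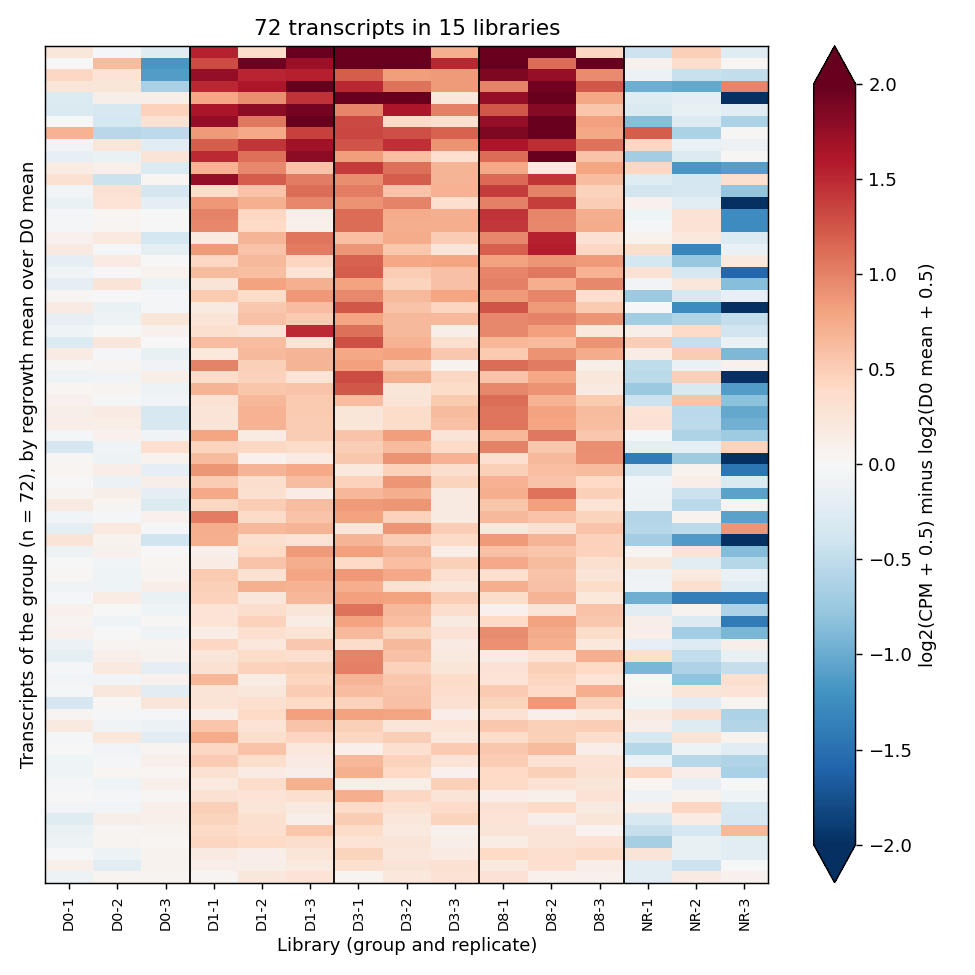
Colour gives log2(CPM + 0.5) of each of the 72 members (rows, largest ratio of regrowth to D0 at the top) in each of the 15 libraries (columns, grouped as D0, D1, D3, D8 and NR), minus the log2 of the D0 mean; the scale is capped at 2 in both directions. All 9 regrowth columns are red by construction of the rule, palest in D3 replicate 3, while the NR columns are mixed, with the deepest blue in NR replicate 3.

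The gap that separated regrowth from D0 was narrow. The lowest regrowth library was 1.0004 to 1.60 times the highest D0 library, with a median of 1.04 times. The gap was at least 1.1 times in 12 members, at least 1.2 times in 8 and at least 1.5 times in 3. Exact 95% Poisson intervals of the 2 libraries on either side of the gap, which cover counting error only, were apart in 3 members, ENSCINT00000024202, ENSCINT00000025362 and ENSCINT00000006581. In the other 69 the 2 intervals overlapped, which alone does not place the gap within counting error, and the group means lay farther apart.

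**Figure D2:**
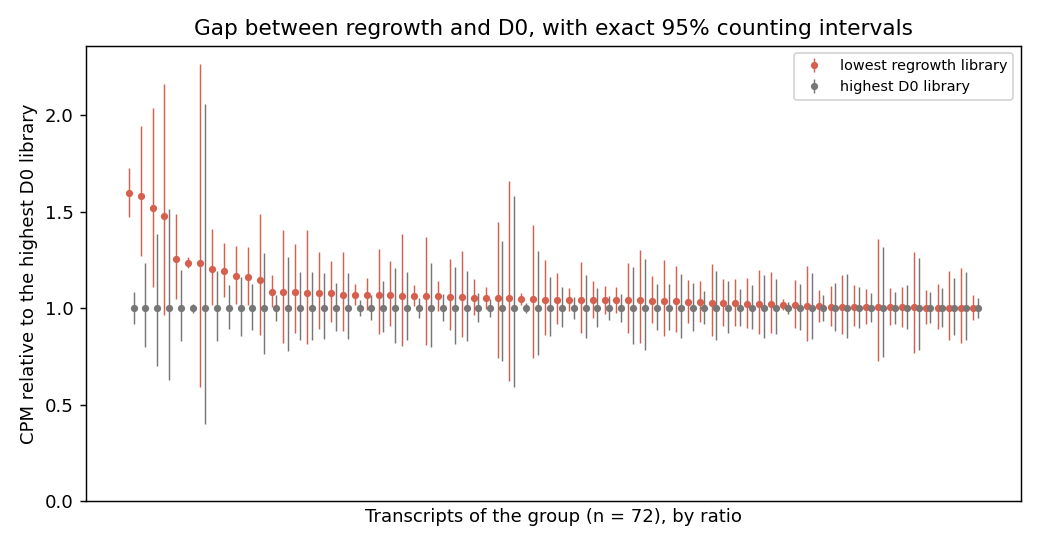
For each of the 72 members, ordered by gap, the lowest regrowth library (red, left of each pair) and the highest D0 library (grey) are plotted as CPM relative to the highest D0 library, with exact 95% counting intervals. The lowest regrowth library is 1.60 times the highest D0 library at the left end and 1.0004 times at the right end, and the intervals are apart in 3 members.

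ENSCINT00000024202 had the widest gap. It stood at 22.9, 28.1 and 20.3 CPM at D0, 55.5, 64.9 and 77.5 CPM at D1, 57.8, 66.6 and 44.8 CPM at D3, and 73.8, 67.2 and 51.0 CPM at D8. NR libraries held 31.8, 21.7 and 21.9 CPM. The lowest regrowth library, D3 replicate 3, had 604 counts and the highest D0 library, replicate 2, had 578, for intervals of 41.3 to 48.5 CPM and 25.8 to 30.5 CPM. All 9 regrowth libraries were above all 6 others.

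ENSCINT00000025362 had a regrowth mean of 10.8 ± 3.62 CPM (SD, n = 9) and a D0 mean of 3.49 ± 1.26 CPM (SD, n = 3). Its libraries held 4.22, 4.23 and 2.04 CPM at D0, 10.9, 11.7 and 17.8 CPM at D1, 10.9, 7.93 and 6.68 CPM at D3, and 7.48, 14.7 and 8.97 CPM at D8. The NR libraries were split, at 1.54, 1.46 and 7.39 CPM, so that NR replicate 3 lay inside the regrowth range although the NR mean did not exceed the highest D0 library.

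ENSCINT00000006581 was the most counted member. Its 3 libraries held 415, 249 and 343 CPM at D0, 1142, 777 and 685 CPM at D1, 643, 774 and 535 CPM at D3, and 733, 903 and 513 CPM at D8, against 284, 264 and 422 CPM in NR siphons. Regrowth averaged 745 ± 193 CPM (SD, n = 9) and D0 336 ± 83.6 CPM (SD, n = 3), a ratio of 2.22. The 6 libraries of D0 and NR overlapped each other and lay wholly below the 9 regrowth libraries.

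2 members with wide gaps were counted rarely. ENSCINT00000026781 held 0.956, 1.75 and 0.146 CPM at D0, 3.08, 5.09 and 4.25 CPM at D1, 10.5, 7.02 and 3.64 CPM at D3, and 7.55, 2.66 and 5.68 CPM at D8, against 1.05, 1.35 and 0.995 CPM in NR siphons. Its D0 values rest on 17, 36 and 3 counts. ENSCINT00000036964 held 1.24, 1.07 and 0.0970 CPM at D0, 3.91, 3.25 and 3.31 CPM at D1, 2.50, 1.83 and 1.85 CPM at D3, and 4.26, 3.84 and 2.0 CPM at D8, against 0.698, 0.450 and 0.426 CPM in NR siphons. Regrowth means were 5.79 and 3.71 times the D0 means for ENSCINT00000026781 and ENSCINT00000036964, and in both D0 replicate 3, with 3 and 2 counts, lay far under the other D0 libraries.

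The other 3 of the 4 most counted members had smaller ratios of regrowth to D0. ENSCINT00000033991 averaged 353 ± 55.9 CPM in regrowth (SD, n = 9) and 243 ± 23.7 CPM at D0 (SD, n = 3), ENSCINT00000024764 256 ± 55.6 and 169.7 ± 19.5 CPM, and ENSCINT00000009147 143 ± 18.9 and 97.5 ± 8.38 CPM. Their gaps were 1.05, 1.02 and 1.07 times. The range of the lowest to highest regrowth library was 280.0 to 429 CPM for ENSCINT00000033991, 188 to 363 CPM for ENSCINT00000024764 and 115 to 162 CPM for ENSCINT00000009147.

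**Figure D3:**
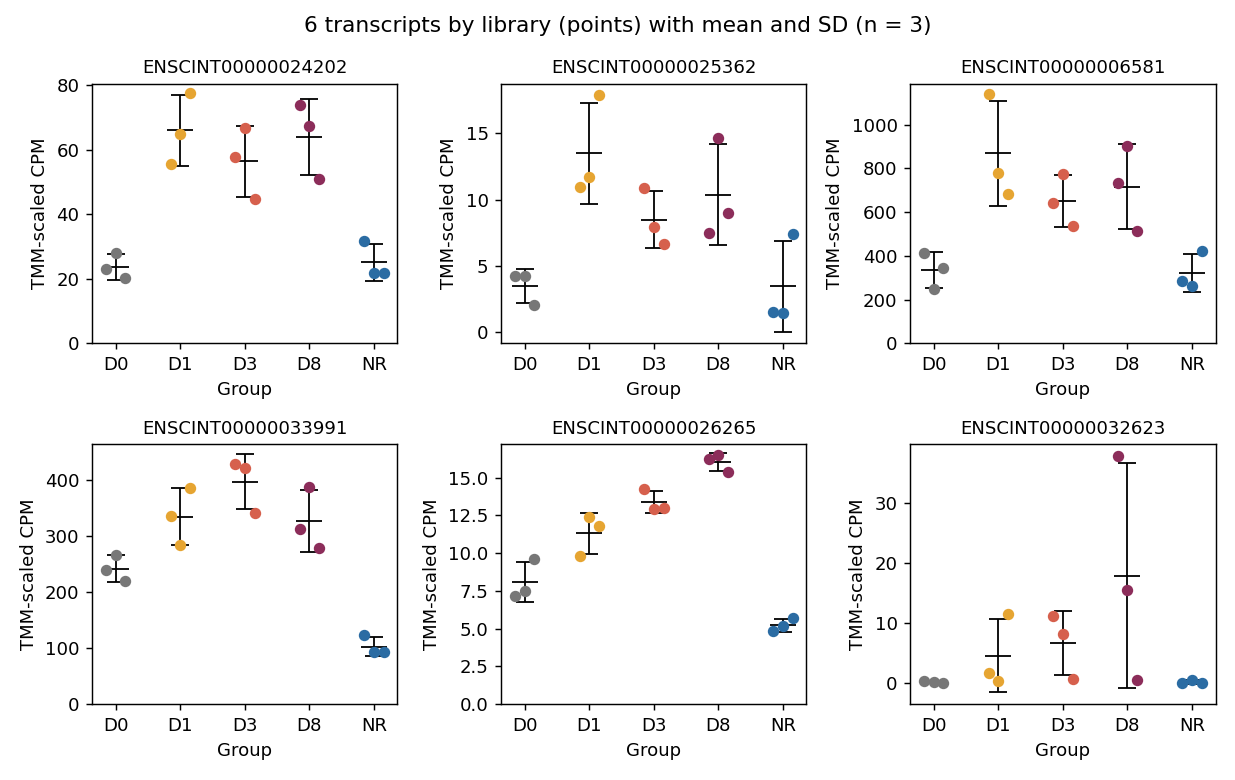
TMM-scaled CPM of 6 members in each library (points, replicates 1 to 3 from left to right) by group, with the group mean and SD (black, n = 3). In ENSCINT00000024202, ENSCINT00000006581, ENSCINT00000033991 and ENSCINT00000026265 the 9 regrowth libraries stand above all others, by a narrow gap to D0 in the last 2 of these. NR is far under D0 in ENSCINT00000033991, and the means of ENSCINT00000026265 increase in order from D0 to D8. ENSCINT00000032623 is spread over the regrowth libraries, from 0.485 to 37.7 CPM.

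Members near the limits of the rule show how fine the selection is. ENSCINT00000017813 entered with a lowest regrowth library of 69.29 CPM and a highest D0 library of 69.26 CPM, and ENSCINT00000036857 with 6.464 and 6.460 CPM. ENSCINT00000028269, with 135.57 and 135.61 CPM, and ENSCINT00000034612, with 3.370 and 3.375 CPM, stayed out. The members with the lowest regrowth mean were ENSCINT00000034028 at 1.95 CPM and ENSCINT00000036964 at 2.97 CPM, and no transcript that met the other conditions was lost to the minimum of 1 CPM. The NR mean was 0.997 times the highest D0 library in ENSCINT00000036763 and 0.991 times in ENSCINT00000031809, which are members, and 1.00 times in ENSCINT00000025220 and 1.01 times in ENSCINT00000033413, which are not. Scaling alone moved several of the named members over the limit: with library totals the lowest regrowth library was under the highest D0 library in ENSCINT00000009147, ENSCINT00000031809, ENSCINT00000026265, ENSCINT00000017813 and ENSCINT00000013721, and with RLE size factors in ENSCINT00000034254 and ENSCINT00000011673.

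In NR siphons the members lay on average a little under D0. The rule kept out transcripts with an NR mean above the highest D0 library, which by itself lowers NR relative to D0. The values below are therefore a description, and nothing is read from their difference from all tested transcripts. The median over the 72 of the log2 difference between NR and D0 means, on the log2(CPM + 0.5) scale, was -0.19, where all tested transcripts had -0.01. It was -0.09 without NR replicate 3 and -0.23 without NR replicate 2. The NR mean was below the D0 mean in 55 members and above it in 17, and within 0.8 to 1.25 times the D0 mean in 44. NR and D0 libraries overlapped in 61 members, and in the other 11 all 3 NR libraries lay below all 3 D0 libraries. That is 15.3% of the members, beside 22.2% of all tested transcripts.

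The rule placed a limit on the NR mean and not on each NR library. In 30 members every NR library was at or below the highest D0 library, and in 42 at least 1 was above it. All 9 regrowth libraries were above all 3 NR libraries in 39 members (54.2%), where the background over all tested transcripts was 10.1%; the rule used both groups, so nothing is read from this share. In the remaining 33 members an NR library reached into the regrowth range, which NR replicate 1 did in 12 members, NR replicate 2 in 17 and NR replicate 3 in 8.

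ENSCINT00000034254 had the lowest NR level relative to D0, with 2.30, 4.02 and 0.711 CPM in NR siphons against 7.03, 6.41 and 7.23 CPM at D0. Its regrowth libraries ran from 7.37 to 13.5 CPM. ENSCINT00000011673 had 7.40, 5.33 and 1.85 CPM in NR siphons against 14.8, 12.9 and 9.17 CPM at D0, and 14.9 to 22.7 CPM in regrowth. ENSCINT00000033991 had 123, 92.5 and 93.3 CPM in NR siphons against 239.6, 268 and 220.5 CPM at D0. In these 3 the NR mean was 0.340, 0.396 and 0.425 times the D0 mean, and they were the members with an NR mean of at most 0.5 times D0. At the other end, ENSCINT00000033422, chosen after its values were seen, had an NR mean of 1.34 times the D0 mean, with 32.3, 8.63 and 13.9 CPM in NR siphons against 22.4, 9.13 and 9.36 CPM at D0.

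**Figure D4:**
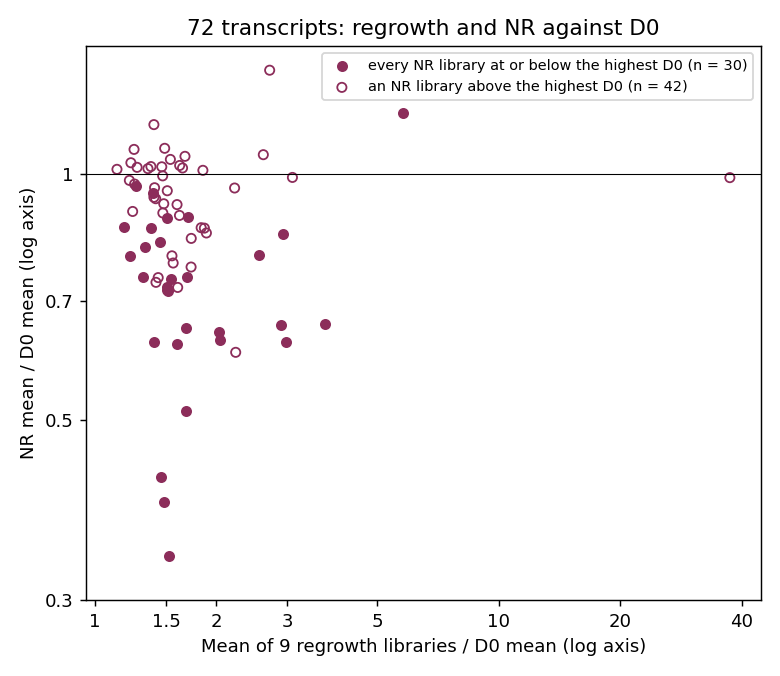
Each point is a member, with the mean of the 9 regrowth libraries over the D0 mean on the horizontal axis and the NR mean over the D0 mean on the vertical axis, both on log axes. Filled points are the 30 members with every NR library at or below the highest D0 library, and open points the 42 with an NR library above it; most members sit between 1.2 and 2 times D0 in regrowth, and 3 have an NR mean under 0.5 times D0.

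The comparison of D1, D3 and D8 with each other asked whether the members differed between stages of regrowth. The rule did not choose between days, but it held every regrowth library above D0, which limits how far any day can fall. The shares of members below are therefore a description. No member passed in any of the 4 tests with edgeR's quasi-likelihood test at an adjusted p of 0.05, and neither did any other transcript, so that 0% were called over the 15328 tested. Between D3 and D1 the lowest adjusted p among members was 0.999, and 2 of 72 (2.78%) had an unadjusted p under 0.05, beside 2.99% of all transcripts. Between D8 and D3 there were also 2 (2.78%), beside 2.99%. Between D8 and D1 there was 1 (1.39%), beside 1.45%, and in the F-test over the 3 days 1 (1.39%), beside 2.25%. These shares over all transcripts were below the 0.05 cut-off, so the lack of calls is not read as equal levels on all days. With edgeR fitted to the 9 regrowth libraries alone, 4, 2, 4 and 1 of the 72 had an unadjusted p under 0.05, in the same order of tests. Over all 14948 transcripts tested there, the counts were 632, 581, 363 and 483, and no member was called. DESeq2 and limma voom likewise called 0 members in each of the 4 tests, while DESeq2 called 11, 17, 1 and 14 transcripts over the whole table.

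Day means were not evenly placed, which is a description of transcripts that share the same libraries and was not tested over the set. Of the 72 members, 16 had their highest day mean at D1, 24 at D3 and 32 at D8, which is 22.2%, 33.3% and 44.4%, where all tested transcripts gave 32.0%, 36.5% and 31.5%. Of the 262 transcripts with the same rise and an NR mean above the highest D0 library, 43.1% had D8 highest. Day means increased in the order D1, D3, D8 in 22 members, 30.6%, beside 15.9% of all tested transcripts. They decreased in that order in 2, for which no share over all tested transcripts was computed. Medians over the members of the log2 difference from the D0 mean were 0.50 at D1, 0.61 at D3 and 0.67 at D8, where those over all tested transcripts were 0.03, 0.01 and 0.01. By library, the medians were 0.47, 0.44 and 0.56 at D1, 0.80, 0.60 and 0.37 at D3, and 0.72, 0.72 and 0.46 at D8. The ranges of the 3 days overlapped, and D3 replicate 3 and D8 replicate 3 were the lowest libraries of their days.

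**Figure D5:**
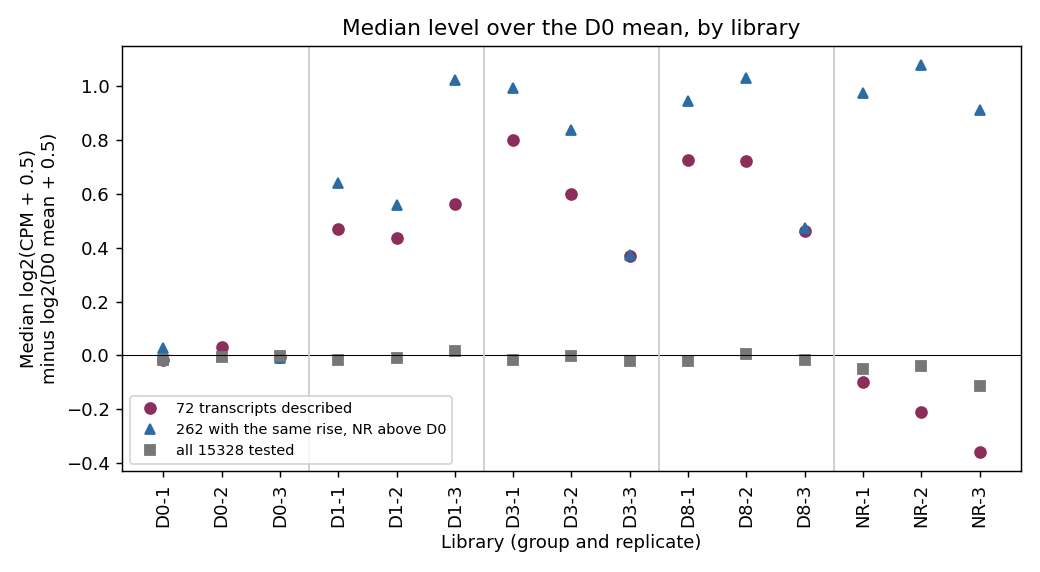
Median over transcripts of log2(CPM + 0.5) minus the log2 of the D0 mean, in each library, for the 72 members (circles), the 262 transcripts likewise above D0 in all 9 regrowth libraries and with an NR mean above the highest D0 library (triangles) and all 15328 tested transcripts (squares). The members run from 0.37 to 0.80 in the regrowth libraries and from -0.36 to -0.10 in NR. The squares run from -0.11 in NR replicate 3, within the range of the members in NR, to 0.02 in D1 replicate 3.

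Among single members, only ENSCINT00000026265 had its days separated in order of time, with all D1 libraries below all D3 libraries and all D3 libraries below all D8 libraries. It held 7.14, 7.48 and 9.60 CPM at D0, 9.78, 12.4 and 11.8 CPM at D1, 14.3, 12.9 and 13.0 CPM at D3, and 16.2, 16.5 and 15.4 CPM at D8. NR siphons stood below all of these, at 4.82, 5.18 and 5.69 CPM. The log2 fold change of D8 over D1 was 0.51 ± 0.194 (SE), with an unadjusted p of 0.0202 and an adjusted p of 1.00 in edgeR's quasi-likelihood test.

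D1 stood wholly above D3 and D8 in 2 members (2.78%, beside 1.40% of all tested transcripts). ENSCINT00000029117 held 19.1, 16.5 and 17.6 CPM at D1, 11.9, 14.2 and 13.1 CPM at D3 and 14.3, 15.6 and 15.9 CPM at D8. ENSCINT00000013721 held 44.0, 43.1 and 41.9 CPM at D1, 39.4, 39.1 and 35.8 CPM at D3 and 36.4, 39.0 and 40.1 CPM at D8. D8 stood wholly above the other days in 1 member (1.39%, beside 0.541%) and D3 in 0 (beside 1.46%). Conversely, D1 stood wholly below the other days in 2 members (2.78%, beside 0.757%), ENSCINT00000026265 and ENSCINT00000030300, D3 in 1 (1.39%, beside 1.19%), ENSCINT00000029117, and D8 in 0 (beside 0.913%). Among members with a D3 mean of at least 5 CPM, those with D3 highest by the largest ratio to the next day were ENSCINT00000026781 and ENSCINT00000010872, the second at 4.09, 4.41 and 3.82 CPM at D1, 8.25, 5.34 and 4.23 CPM at D3 and 4.81, 5.55 and 3.68 CPM at D8, and in both D3 overlapped the other days.

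ENSCINT00000013223 and ENSCINT00000021540, chosen after their values were seen, had the lowest unadjusted p between D3 and its neighbours. ENSCINT00000013223 held 6.64, 5.15 and 8.25 CPM at D0, 23.7, 14.5 and 34.4 CPM at D1, 17.4, 8.92 and 8.61 CPM at D3, and 23.8, 30.3 and 12.1 CPM at D8. Its log2 fold change of D3 over D1 was -1.07 ± 0.395 (SE), for which edgeR gave an adjusted p of 0.999. ENSCINT00000021540 held 2.92, 3.01 and 4.12 CPM at D0, 10.4, 7.81 and 12.9 CPM at D1, 6.38, 5.34 and 4.38 CPM at D3, and 7.83, 16.8 and 5.23 CPM at D8, with a log2 fold change of D3 over D1 of -0.96 ± 0.392 (SE), at an edgeR adjusted p of 0.999. NR siphons stood at 4.36 ± 1.02 and 2.67 ± 0.764 CPM for ENSCINT00000013223 and ENSCINT00000021540 (SD, n = 3).

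Members varied less among the 9 regrowth libraries than transcripts at large, with a median of 1.73 for the ratio of the highest to the lowest library, where all tested transcripts had 2.24. The rule bounds the lowest library from below, so this is a description. The ratio was under 2 in 48 members and at least 3 in 6. ENSCINT00000032623, chosen after its values were seen, was far more spread than any other member. It held 0.394, 0.243 and 0.146 CPM at D0, 1.72, 0.485 and 11.6 CPM at D1, 11.1, 8.29 and 0.742 CPM at D3, and 37.7, 15.5 and 0.516 CPM at D8, against 0.0698, 0.563 and 0.142 CPM in NR siphons. The 3 lowest regrowth libraries, D1 replicate 2, D3 replicate 3 and D8 replicate 3, rest on 10, 10 and 8 counts, and D0 on 7, 5 and 3. Its regrowth mean was 37.3 times the D0 mean, the largest ratio of the 72. The 5 high libraries were D1 replicate 3, D3 replicates 1 and 2, and D8 replicates 1 and 2, and the other 4 held 1.72 CPM or less.

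The lowest regrowth library was a replicate 3 in 36 of the 72 members, D3 replicate 3 in 17, D1 replicate 3 in 10 and D8 replicate 3 in 9. The highest was D3 replicate 1, the shallowest library, in 18 members, D8 replicate 1 in 17 and D8 replicate 2 in 15. These counts were not made over all tested transcripts, so they are not read as particular to the members. Whether depth has a part in the high values of D3 replicate 1 was not tested. Without replicate 3 of D1, D3 and D8 together, the rule admitted 290 transcripts, including all 72. Omitting regrowth libraries relaxes the rule, so nothing is read from all 72 being kept. The day means were then highest at D1 in 11 of the 72, at D3 in 23 and at D8 in 38. The shares of all tested transcripts were 36.0%, 32.0% and 32.0%. Under the same omission edgeR called 1 of the 72 members (1.39%) between D8 and D1, beside 58 of 15546 transcripts tested (0.373%). The member was ENSCINT00000032623, with a log2 fold change of 4.62 ± 0.756 (SE) at an adjusted p of 0.0338. That omission removes a low D8 library and a high D1 library of this transcript.

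The 262 transcripts that were likewise above D0 in all 9 regrowth libraries but had an NR mean above the highest D0 library are the closest set to the members. The regrowth mean was a median of 1.52 times the D0 mean in the members and 1.83 times in the 262, and the median gap was 1.04 times in the members and 1.09 times in the 262. The gap was at least 1.2 times in 8 of 72 members and in 55 of the 262. The highest day mean was at D1 in 22.2% of the members and 34.0% of the 262, at D3 in 33.3% of the members and 22.9% of the 262, and at D8 in 44.4% of the members and 43.1% of the 262. These are counts over transcripts of the same libraries, and no test of the difference was made. In D3 replicate 3 and D8 replicate 3 the medians of the members (0.37 and 0.46) and of the 262 (0.37 and 0.47) were close together, whereas in the other regrowth libraries the median of the 262 was higher.

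ENSCINT00000036065 and ENSCINT00000037111, both members and chosen after their values were seen, had 1871 and 1874 counts in all and agreed within 1% of their totals. Reads that belong to both cannot be assigned to either, so the pair may be a single signal, and counting it once gives 71 members. ENSCINT00000009762 and ENSCINT00000030802, also chosen after their values were seen, had 1766 and 1759 counts in all and fell narrowly outside the 1% limit. They may likewise share reads, so 71 need not be the number of separate signals. Overlapping and antisense transcripts cannot be told apart, since no source used here states whether counting used strand.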

How the data were processed

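The authors deposited 1 table of whole-number read counts, not normalized, whose rows are Ensembl transcripts. TopHat, Bowtie and HTSeq are listed in the submitters' processing notes. No source used here states their versions and settings, the genome build or the annotation. Column names matched the sample titles, which gave groups and replicate numbers. Counts were TMM-scaled over all rows in edgeR 4.0.16 (R 4.3.3) to CPM, to which the rule was applied. Day-to-day tests used edgeR's quasi-likelihood test with robust estimation, on 15328 transcripts past its default filter (minimum count 10) in all 15 libraries, a mean per group and Benjamini-Hochberg adjustment over all of them, with a threshold of 0.05. The script was tested on simulated data. Same-numbered D8 and D3 libraries deviated from their group means together (correlations 0.26, 0.19 and 0.44 for replicates 1 to 3). The best match of D3 replicate 1 was however D8 replicate 2. Pairing by number is therefore incomplete in the data, and the labels do not state it. DESeq2 1.42.0 and limma voom (limma 3.58.1) were alternatives. Log2 medians used a pseudocount of 0.5 CPM. Reads were counted without molecular identifiers, and intervals cover counting error only.

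Members, lists and tests were chosen with earlier results of these data known. Named transcripts were, by rule, the 4 with the widest gap, the 4 most counted, at most 2 per day with that day highest (no overlap with other days where there were any such, at least 5 CPM), the 3 with the lowest NR over D0, and 2 on either side of each limit; others are marked as chosen after their values were seen.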

Additional observations from a re-analysis of the deposited data

How the results depend on the processing

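The list of 72 depended on scaling. With TMM factors taken from the filtered transcripts, 73 transcripts met the rule, of which 65 were among the 72. With RLE size factors 56 did, all among the 72. With library totals alone 176 did, of which 48 were among the 72. Totals alone moved the median log2 difference of all tested transcripts from D0 to 0.18 at D1, 0.11 at D3, 0.14 at D8 and -0.40 in NR. Of the 72, 39 were kept under both RLE size factors and library totals, including ENSCINT00000024202, ENSCINT00000025362 and ENSCINT00000006581. With every NR library held at or below the highest D0 library 30 remained, and with a gap of at least 1.5 times 3. Leaving out a library gave 65 to 164 transcripts, with 128 without D0 replicate 2, 164 without D0 replicate 3 and 160 without D3 replicate 3. Of the original 72, 52 to 68 were among them when a D0 or NR library was left out. All 72 remained without any single D1, D3 or D8 library, an omission that relaxes the rule. Without replicate 3 of D1, D3 and D8 together there were 290.

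The log2 of lowest regrowth over highest D0 turned negative with library totals alone in ENSCINT00000009147 (-0.13), ENSCINT00000031809 (-0.19), ENSCINT00000026265 (-0.050), ENSCINT00000017813 (-0.017) and ENSCINT00000013721 (-0.14), and with RLE size factors in ENSCINT00000034254 (-0.0096) and ENSCINT00000011673 (-0.025); the cause was not tested beyond the change of scale itself. The median log2 differences of the members from D0 with library totals alone were 0.66 at D1, 0.82 at D8 and -0.55 in NR. All tested transcripts moved in the same directions under that scaling, to 0.18, 0.14 and -0.40. With a pseudocount of 5 CPM the medians of the members were 0.35 at D1 and 0.49 at D8. Between days, 0 members were called under every alternative except the omission of replicate 3 of the 3 days, which gave 1 between D8 and D1, beside 58 of 15546 transcripts tested. The median log2 difference of NR from D0 was -0.19 with all libraries and -0.09 without NR replicate 3. Same-numbered libraries of D1 did not pair with those of D3 or D8 (correlations of deviations from -0.69 to -0.12); the replicate block, fitted over all groups, called 0 members in the 4 tests and changed no call, D8 against D3 included.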

Other observations

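Pairs of members differed in how closely they followed each other over the 9 regrowth libraries. The median Spearman's rho over the 2556 pairs of members was 0.2. It reached 0.9 in 16 pairs, among them the near-identical ENSCINT00000036065 and ENSCINT00000037111. For pairs of the 262 transcripts with the same rise and an NR mean above the highest D0 library, the median was 0.42. No such median was computed over all tested transcripts, so 0.2 is not read as particular to the members. ENSCINT00000032623 and ENSCINT00000033422 had a rho of 0.967, and ENSCINT00000013223 and ENSCINT00000021540 0.933. All these values share libraries and depth and are a description only, and the named pairs were chosen after their values were seen.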
